A study of Rattus norvegicus with 27 samples.

Results

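Gene expression in the prefrontal cortex of diabetic Goto-Kakizaki rats was compared with that of control Wistar rats. The comparison rests on 6 of the 27 arrays of the series, chosen by the labels of region and strain: 3 arrays of Goto-Kakizaki tissue and 3 of control tissue. Each array held RNA pooled from 3 animals, so that n is 3 pools a group and the spread between single animals was not measured. All animals were males aged 10 weeks. The labels give a mean blood sugar of 13.9 mmol/l for the Goto-Kakizaki rats, which stand for type 2 diabetes, and 7.64 mmol/l for the untreated Wistar rats. A further 3 pools of prefrontal cortex came from Wistar rats given streptozotocin, the model of type 1 diabetes (26.34 mmol/l). They were compared with the same control arrays, and their values are given beside those of the Goto-Kakizaki rats only for some genes and lists.

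The Goto-Kakizaki strain was bred from Wistar rats by repeated selection for poor glucose tolerance, and its animals become hyperglycaemic without obesity. It is an inbred strain with no introduced transgene, so that a difference from Wistar rats holds both the diabetic state and the inherited differences between the strains, which cannot be told apart here. The prefrontal cortex integrates sensory, emotional and memory signals for planning and decisions. Its glutamatergic projection neurons and GABAergic interneurons are modulated by peptides, acetylcholine and monoamines.

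Levels are given on a log2 scale on which 0 is the 75th percentile of an array's signals and 1 unit is a factor of 2. A probe was called higher or lower when its change was at least 2-fold and its adjusted p from limma, by the Benjamini-Hochberg method over all tested probes, was under 0.05. Of 30667 probes tested, 769 were called (2.51%), of which 231 were higher (0.753%) and 538 were lower (1.75%) in Goto-Kakizaki rats. The median change over all tested probes was 0.01 log2 units. Lower calls were more often on dim probes: 44.6% of them, against 28.1% of the higher calls, lay among the 7667 tested probes of lowest signal. In 67 of the 538 lower calls the signal was well above background in every control pool and in no Goto-Kakizaki pool, and the opposite held for 13 of the 231 higher calls. The strain difference reached 4-fold in 134 lower and 37 higher calls. Gene names could be assigned to 33.3% of the lower and 57.1% of the higher calls, against 54.5% of all tested probes.

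**Figure D1:**
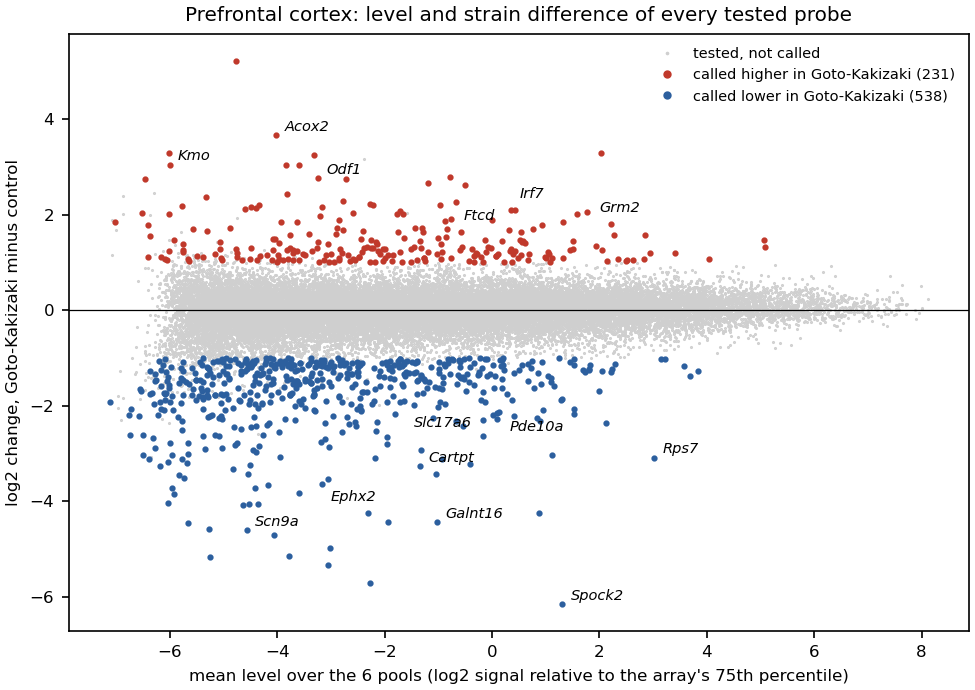
Each point is 1 probe. The horizontal axis is its mean level over the 6 pools (log2 signal relative to the array's 75th percentile) and the vertical axis its log2 change, Goto-Kakizaki minus control. The 538 lower calls (blue) spread further from 0 than the 231 higher calls (red), down to -6.15 for Spock2.

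Arrays of 1 group correlated at 0.984 to 0.992 (Goto-Kakizaki) and 0.972 to 0.991 (control) over 29644 probes, and arrays of different groups at 0.964 to 0.983. The Goto-Kakizaki and control pools of this region lay on different slides, 1 and 3 against 5, 6 and 7, so that slide and strain cannot be told apart. The streptozotocin pools of this region shared slides 5, 6 and 7 with the controls. Where they lie with the controls, slide and strain cannot be told apart either. Markers of cortex were present in every pool: the mean level of 21 markers of cortical layers and projection neurons lay between 0.20 and 0.56 in Goto-Kakizaki and between 0.33 and 0.41 in control pools. Markers of striatal neurons were uneven among the control pools, and their values stand beside the results they move with.

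The probes on which the largest differences rest are shown because several genes were read by more than 1 probe, and the probes of a gene did not always give the same result. Each is a 60-base oligonucleotide given 5′ to 3′ as the array design lists it, and no base is marked.
Spock2 (change -6.15): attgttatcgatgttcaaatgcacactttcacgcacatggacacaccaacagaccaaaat
Galnt16 (-4.43): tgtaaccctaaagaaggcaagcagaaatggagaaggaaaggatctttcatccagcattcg
Ephx2 (-3.64): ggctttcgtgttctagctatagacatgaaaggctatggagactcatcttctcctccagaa
Ankfy1, first probe (-2.98): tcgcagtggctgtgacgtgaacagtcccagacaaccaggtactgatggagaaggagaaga
Ankfy1, second probe (0.07): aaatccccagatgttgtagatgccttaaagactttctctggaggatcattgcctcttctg
Ankfy1, last probe (-0.07): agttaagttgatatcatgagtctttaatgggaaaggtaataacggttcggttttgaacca
Oxnad1, first probe (-3.72): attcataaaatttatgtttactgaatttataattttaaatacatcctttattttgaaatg
Oxnad1, second probe (-0.06): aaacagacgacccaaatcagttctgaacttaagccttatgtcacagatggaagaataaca
Acsm5, first probe (-3.33): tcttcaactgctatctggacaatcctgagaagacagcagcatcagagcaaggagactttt
Acsm5, second probe (-2.43): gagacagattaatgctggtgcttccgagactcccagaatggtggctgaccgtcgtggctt
Jund, first probe (1.32): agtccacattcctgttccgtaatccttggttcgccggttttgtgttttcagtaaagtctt
Jund, second probe (1.89): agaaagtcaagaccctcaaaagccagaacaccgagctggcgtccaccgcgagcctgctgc
Grm2 (2.06): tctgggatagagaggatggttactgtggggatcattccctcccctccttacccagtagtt

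The largest decrease among all tested probes was that of Spock2, whose product is a secreted matrix proteoglycan also called testican. Its level was -1.96, -1.66 and -1.66 in the Goto-Kakizaki pools and 4.54, 4.17 and 4.44 in the control pools. The groups were far apart, with a change of -6.15 ± 0.17 (SE) and an adjusted p of 2.03e-14 from limma, in a fit that left out 2 of the 27 arrays for this spot. The 3 streptozotocin pools lay at 4.31, 4.38 and 4.37, at the level of the controls, whose slides they shared.

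Galnt16, an enzyme that starts O-linked glycosylation, had levels of -3.66, -3.25 and -2.82 in Goto-Kakizaki against 1.27, 1.10 and 1.20 in control pools (change -4.43 ± 0.23, SE). Ephx2, a hydrolase of the cytosol that inactivates signalling epoxides of fatty acids, was at -5.34, -4.97 and -4.63 against -1.19, -1.62 and -1.20 (change -3.64 ± 0.20). Rps7, a protein of the small ribosomal subunit, was at 1.22, 1.51 and 1.69 against 4.39, 4.73 and 4.56 (change -3.09 ± 0.18). In each of these genes the 3 pools of a group lay close together, and the rule that chose them required groups that do not overlap. The limma adjusted p was 2.93e-11 for Galnt16, 4.19e-11 for Ephx2 and 1.36e-10 for Rps7.

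Of the 15 named genes with the largest decreases and no overlap between the groups, 6 had no Goto-Kakizaki pool well above background, so that only a bound can be given: the mean of the bright pools over that of the dim pools, with each dim pool set to its own signal or, where higher, to the lowest signal well above background on its array. Scn9a, a voltage-gated sodium channel, was at least 11.5-fold lower (limma adjusted p = 8.94e-11). Adcy10, the soluble adenylyl cyclase, was at least 7.60-fold lower, and Tpcn2, an endolysosomal cation channel, at least 7.02-fold lower. Acsm5, an acyl-CoA synthetase of mitochondria, was at least 6.17-fold lower, Oxnad1 at least 3.23-fold and Spatc1l at least 2.53-fold. The adjusted p was 1.46e-07 for Adcy10, 8.68e-09 for Tpcn2, 0.026 for Acsm5, 1.55e-09 for Oxnad1 and 2.21e-08 for Spatc1l. The adjusted p of this Acsm5 probe was 0.0818 without Goto-Kakizaki pool 2, 0.076 without Goto-Kakizaki pool 3, 0.0546 without control pool 1 and 0.134 without control pool 2.

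RT1-Bb, a chain of a class II major histocompatibility molecule, fell by 4.71 (limma adjusted p = 6.39e-06), and its Goto-Kakizaki pools were spread widely at -8.27, -6.13 and -4.83, with 1 of them well above background. Its change ran from -5.50 to -2.29 over the alternative settings, the smallest with the normexp background correction, so that its size is not firm. That correction models the local background of each spot and here added an offset of 50 to every signal. The offset by itself shrinks the log2 changes of dim probes. Trim16 was at -5.08, -5.18 and -4.22 in Goto-Kakizaki and at -1.42, -1.32 and -1.12 in control pools. Its streptozotocin pools, at -5.18, -4.86 and -5.19, lay with the Goto-Kakizaki pools. Ankfy1, an endosomal protein, changed by -2.98 ± 0.16 (SE), with 1 Goto-Kakizaki pool well above background and a range of -3.16 to -1.14 over the alternatives. C4bpa, a regulator of complement, changed by -4.06 ± 1.06 (-5.07 to -1.65 over the alternatives, 1 Goto-Kakizaki pool well above background). Its adjusted p from limma was 0.0181 over all pools. It was 0.1 without Goto-Kakizaki pool 3, 0.11 without control pool 2 and 0.0773 without control pool 3. With the normexp correction the calls for Ankfy1, C4bpa, Acsm5, Oxnad1 and Spatc1l were lost.

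Among the increases of named genes without overlap between the groups, that of Acox2, a peroxisomal oxidase of branched fatty acids and bile acid precursors, was the largest. Its level was -2.08, -2.24 and -2.23 in Goto-Kakizaki and -5.44, -5.23 and -6.86 in control pools (change 3.66 ± 0.41, SE; limma adjusted p = 3.18e-06). It was well above background in 1 control pool, and its change ran from 2.00 to 3.97 over the alternative settings. Odf1, a protein of the sperm tail, was at -1.95, -1.92 and -1.70 against -4.60, -4.76 and -4.49 (change 2.76 ± 0.33). Tanc2, a postsynaptic scaffold protein, changed by 2.74 ± 0.40, Slc11a1, a metal transporter of phagocytes, by 2.01 ± 0.32 and Plcxd2 by 2.01 ± 0.24. The limma adjusted p was 7.27e-06 for Odf1, 8.93e-05 for Tanc2, 2.43e-04 for Slc11a1 and 7.78e-06 for Plcxd2.

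Ftcd, an enzyme of histidine and folate metabolism, rose from -1.84, -1.72 and -1.88 in control pools to 0.24, 0.42 and 0.72 in Goto-Kakizaki pools (change 2.27 ± 0.14, SE; limma adjusted p = 2.64e-10). Its streptozotocin pools were at 0.04, -0.01 and 0.12, also above every control pool (change 1.86, limma adjusted p = 6.38e-08). Kmo, the kynurenine 3-monooxygenase of tryptophan breakdown, had no control pool well above background and was at least 2.41-fold higher (limma adjusted p = 1.19e-07). Ifit1, induced by interferon, was at least 3.04-fold higher, P2rx7, an ATP-gated ion channel, at least 2.08-fold, the sulfotransferase Chst9 at least 1.60-fold and the olfactory receptor Olr1052 at least 1.18-fold. The limma adjusted p was 0.0148 for Ifit1, 0.0122 for P2rx7, 1.38e-06 for Chst9 and 0.0265 for Olr1052.

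Several of these increases depended on single pools. Without Goto-Kakizaki pool 3 the P2rx7 change was 1.62 (limma adjusted p = 0.101), and without control pool 1 it was 1.72 (0.0739). Olr1052 was at 1.49 (0.157) without Goto-Kakizaki pool 2, at 1.80 (0.121) without control pool 2 and at 1.82 (0.108) without control pool 3. Mrps10, a mitochondrial ribosomal protein, changed by 2.08 over all pools, but by 1.44 (0.181) without control pool 3, whose level of -4.05 was below those of control pools 1 (-2.44) and 2 (-1.78). Its adjusted p also exceeded the threshold without Goto-Kakizaki pool 2 (0.0738) or 3 (0.106). Ifit1 was at 2.27 (0.0553) without Goto-Kakizaki pool 2 and 2.15 (0.0747) without control pool 2. Ermp1, a metallopeptidase of the endoplasmic reticulum, changed by 2.11 ± 0.24 (SE) with a limma adjusted p of 4.18e-06. Of its control pools 1 was well above background, and the call was lost with the normexp correction (adjusted p = 0.637).

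**Figure D2:**
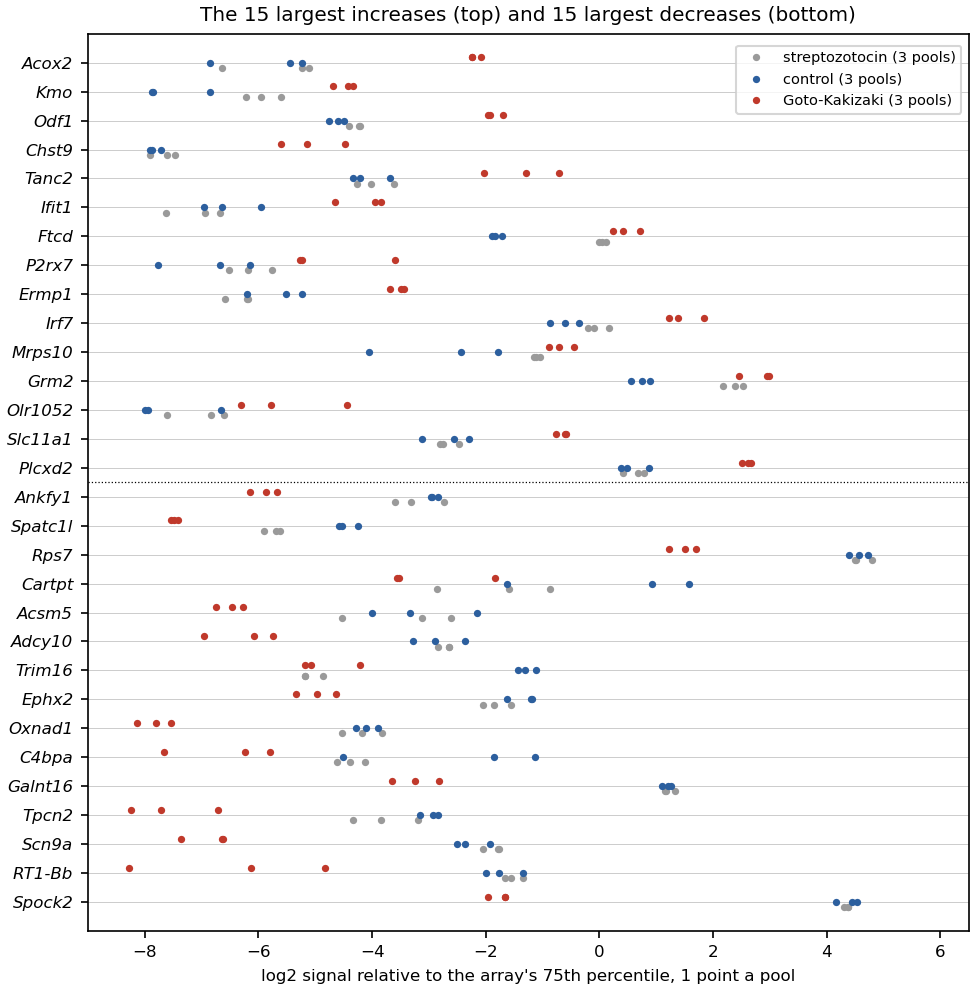
Each row is a gene and each point a pool (red, Goto-Kakizaki; blue, control; grey, streptozotocin). The horizontal axis is the log2 signal relative to the array's 75th percentile. The genes were chosen for groups that do not overlap. The streptozotocin pools of Spock2, Galnt16 and Rps7 lie with the controls, and those of Trim16 lie with the Goto-Kakizaki pools. The streptozotocin pools shared their slides with the controls and not with the Goto-Kakizaki pools.

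A gene with several tested probes did not always change as a whole. Of 77 genes that had several tested probes and at least 1 called, every tested probe was called in the same direction in 9, among them Acsm5, Adora2a, Ghrh, Jund, Rnf182, Sez6l2, Taf13 and Wipf3. In 44 of the 77, another probe of the gene lay within 0.5 log2 units of no change. No gene had probes called in opposite directions. The first Ankfy1 probe printed above changed by -2.98, while the other two changed by 0.07 and -0.07 (adjusted p 0.806 and 0.845, limma). The pair of Oxnad1 probes stood at -3.72 and -0.06, and the pair for RT1-Bb at -4.71 and 0.70 (adjusted p 0.148 for the latter). For Scn9a the second probe was at -0.94 (0.144), and for Ifit1 the second was at -0.53 (0.071). For Ermp1 the others were at 0.11 (0.697) and 0.81 (5.65e-04), the latter higher as well but under 2-fold. Whether the probes differ by transcript form or by a base in the strain's sequence was not tested. A single tested probe stood for Spock2, Galnt16 and Ephx2.

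The probes without a gene name held changes of like size. The probe A_44_P178671 was at -5.33, -4.90 and -5.12 in Goto-Kakizaki and at 0.02, 0.90 and 0.84 in control pools (change -5.70 ± 0.25, SE). Its streptozotocin pools were at -4.33, -4.94 and -4.69, near those of the Goto-Kakizaki rats. The probe A_44_P793901, with 1 Goto-Kakizaki pool well above background, changed by -5.33 ± 0.29 (-5.44 to -3.38 over the alternatives) and A_44_P238939 by 3.29 ± 0.20. The probe A_44_P402948 changed by 5.22 ± 0.27 but had no control pool well above background and was at least 12.1-fold higher. Their limma adjusted p lay between 4.70e-12 and 2.64e-10.

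Interferon-stimulated genes were higher as a group. These genes are switched on by type I interferon and encode proteins that restrict viruses. Of 25 tested (29 in the list), 9 rose and none fell, 21 had a change above 0, and the median change was 0.77 log2 units. Over all 12837 genes, each by its brightest probe, 257 were called (2.00%) and the median change was 0.05. The counts of the later lists stand against this share. The mean level of the 25 genes was -0.58, -0.44 and -0.90 in Goto-Kakizaki pools, -1.49, -1.48 and -1.34 in control pools and -1.17, -1.13 and -1.18 in streptozotocin pools. Every Goto-Kakizaki pool thus lay above every control pool.

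Irf7, the transcription factor that amplifies the interferon response, was at 1.38, 1.84 and 1.22 in Goto-Kakizaki and at -0.61, -0.88 and -0.36 in control pools (change 2.10 ± 0.30, SE; limma adjusted p = 7.57e-05). Mx2, a GTPase that restricts viruses, was at 0.41, 0.32 and -0.18 against -1.66, -1.93 and -1.56 (change 1.90 ± 0.19; 5.25e-07). Oas1a, which makes the oligoadenylates that activate RNase L, was at 1.49, 1.99 and 1.33 against -0.28, -0.15 and 0.14 (change 1.70 ± 0.28; 3.35e-04). Uba7, the enzyme that activates the ubiquitin-like modifier ISG15, changed by 1.30 ± 0.19 (8.51e-05). The groups did not overlap in any of these 4 genes, as was the case for 99.1% of all higher calls and 27.0% of all tested probes. The 4 genes were picked as the called members of smallest p, which favours groups that do not overlap.

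The other called members were Ifit3 (1.65), Isg15 itself (1.30), Usp18, the protease that removes ISG15 (1.27), Rtp4 (1.17) and Rsad2 (1.04). Of the signalling factors in the list, Stat2 stood at -0.17 (limma adjusted p = 0.749) and Irf1 at -0.28 (0.505), and neither passed the test. Irf9 stood at 0.69 (0.00355), below the 2-fold limit. Ifit2 was at 0.07 (0.942) and Mx1, a dim probe, at 1.11 (0.254). Leaving out 1 pool left between 6 and 9 called members, with 6 without Goto-Kakizaki pool 2. With the normexp background correction 6 were called. The 4 genes described above were changed in the same direction in the hippocampus (1.46 for Irf7, 2.07 for Mx2, 1.54 for Oas1a, 0.90 for Uba7) and the striatum (2.31, 2.05, 2.04 and 1.51).

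**Figure D3:**
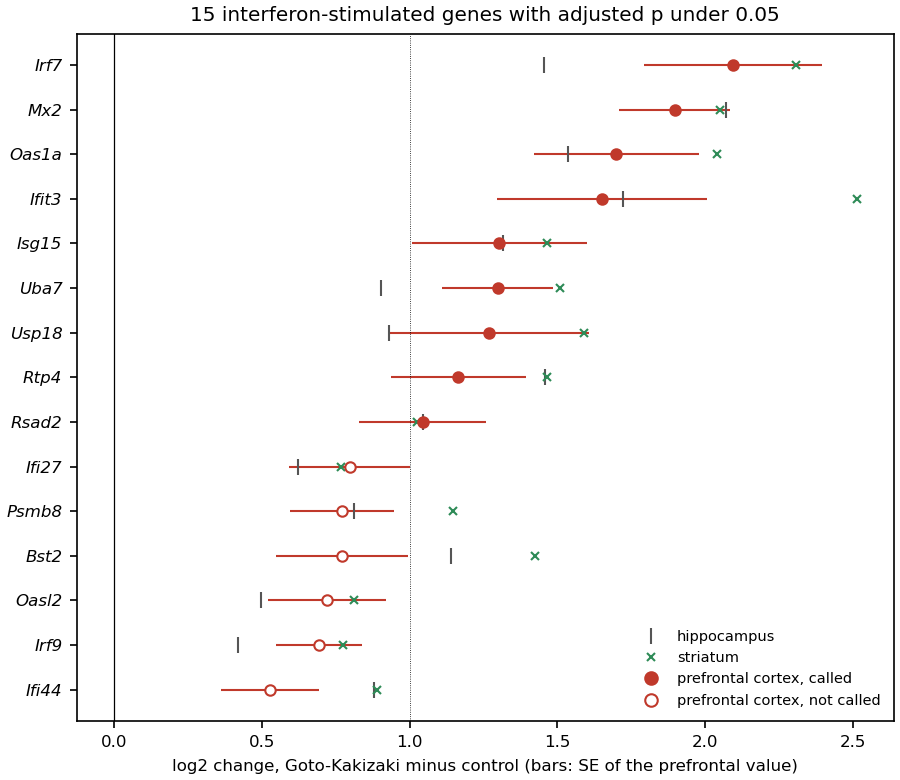
Each row is 1 of the 15 interferon-stimulated genes, of 25 tested, with a limma adjusted p under 0.05. The horizontal axis is the log2 change, Goto-Kakizaki minus control. Circles are the prefrontal cortex with the SE of the change, filled for the 9 called genes, and the bars and crosses are hippocampus and striatum. The prefrontal values run from 0.53 for Ifi44 to 2.10 for Irf7.

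The promoters of these genes were searched for GAAA, any 2 bases and GAAA again, the core of the interferon-stimulated response element, on both strands of the 250 bases before the start of the gene (RefSeq, build GRCr8). A promoter was found for 5 of the 9 called genes, and 4 of them held the motif. It was in 8 of 14 tested members that were not called and in 2.82% of 10452 tested genes with a promoter. The stretches around it are printed along the strand of the gene, with the motif, or its reverse complement (TTTC, any 2 bases, TTTC), in capitals. A match describes the sequence and shows no binding.
Irf7 (GRCr8 chr1:205800058-205800117, minus strand): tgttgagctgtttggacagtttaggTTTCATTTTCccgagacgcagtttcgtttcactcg
Oas1a (GRCr8 chr12:41330400-41330459, plus strand): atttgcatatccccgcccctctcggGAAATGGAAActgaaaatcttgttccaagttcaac
Ifit3 (GRCr8 chr1:241527257-241527316, plus strand): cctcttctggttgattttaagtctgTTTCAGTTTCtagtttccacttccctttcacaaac
Rsad2 (GRCr8 chr6:48788233-48788292, minus strand): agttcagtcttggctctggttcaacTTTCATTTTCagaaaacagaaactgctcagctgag

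Genes of the major histocompatibility complex and antigen presentation showed fewer calls than the interferon-stimulated genes. Of 32 tested members, 3 rose and 1 fell (12.5%, against 2.00% of all genes), with a median change of 0.35. At a limma adjusted p under 0.05 with no limit of fold, 11 were higher and 1 was lower. RT1-Bb stood in this list by its brighter probe, so that the large fall of its other probe, given above, is not counted. Psmb8 and Psmb9 are members of both this list and that of interferon-stimulated genes. RT1-T24-1 (1.25 ± 0.24, SE), RT1-CE7 (1.32 ± 0.31) and RT1-CE10 (1.60 ± 0.45) rose, and RT1-M4 was at least 2.12-fold lower, with no Goto-Kakizaki pool well above background. The limma adjusted p was 0.0017, 0.00818, 0.0269 and 0.0121. The call for RT1-CE7 was lost without control pool 2 (change 1.14, adjusted p = 0.0565). For RT1-CE10 the adjusted p was 0.0761 to 0.16 when either of control pools 2 and 3 or Goto-Kakizaki pools 2 and 3 was left out. For RT1-M4 it was 0.0526 without Goto-Kakizaki pool 1 and 0.0522 without control pool 2. A further probe that the array names RT1-Aw2 was at 2.60, 2.72 and 2.73 against 1.34, 1.52 and 1.42 (change 1.26 ± 0.18; 6.95e-05). Genes of this family are close in sequence, so that a probe may read more than 1 of them.

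The study's list of genes of this region that passed its RT-PCR, with Prkce added, was selected on these same samples and by that second measurement, so that neither their direction nor the number called is independent evidence. By the listed probes, 20 of the 23 were called. Camkk2 (0.94), RT1-CE4 (0.96) and Prkce (0.99) passed the adjusted p but not the 2-fold limit.

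Among glutamate receptors and transporters 1 of 26 tested members rose and 1 fell (7.69%, against 2.00% of all genes), and the median change was 0.04. Grm2, the inhibitory metabotropic receptor that limits glutamate release, rose. It was at 2.46, 2.98 and 2.96 in Goto-Kakizaki pools and at 0.89, 0.76 and 0.56 in control pools (change 2.06 ± 0.18, SE; limma adjusted p = 5.69e-08). The streptozotocin pools, at 2.38, 2.18 and 2.53, were also above every control pool (change 1.63, limma adjusted p = 2.39e-05). Slc17a6, the vesicular glutamate transporter VGLUT2 of thalamic and other subcortical neurons, was lower, at -0.82, -0.99 and -1.43 against 1.22, 1.36 and 0.77 (change -2.19 ± 0.42; 0.00145). Slc17a7, its counterpart in cortical neurons, stood at 0.44 (0.168). Grin1, the obligatory NMDA receptor subunit, was at 0.79 (2.50e-04), below the 2-fold limit. The list of olfactory bulb, thalamus and claustrum markers, which holds Slc17a6, had 2 lower calls among 13 tested genes and a median of -0.37, and its mean level was -0.74 to -0.65 in Goto-Kakizaki and -0.37 to -0.23 in control pools. The other call was Doc2g, a marker of the olfactory bulb (-1.59 ± 0.19; 8.90e-06). The part of tissue from neighbouring areas in these results was not tested.

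Of 19 tested protein kinase C and calmodulin kinase genes 2 rose (10.5%, against 2.00% called of all genes), none fell, and the median was 0.14. Prkce, the epsilon isoform of protein kinase C, was at 1.85, 1.91 and 1.84 against 0.92, 0.79 and 0.63 by its brightest probe (change 1.09 ± 0.17, SE; limma adjusted p = 2.22e-04). Its other probes gave 0.99 (4.24e-04) and 0.72 (0.0198). Of 19 GABA genes 1 rose, the receptor subunit Gabra4 (1.17 ± 0.17; 6.39e-05), whose change was 0.96 without Goto-Kakizaki pool 1, and the median of the list was 0.06.

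Potassium channel genes were called higher in 3 of 74 tested, and the median was 0.04. Over all 12837 genes 113 were called higher and the median was 0.05. Kcnj12, an inward rectifier, was at 2.48, 2.63 and 2.70 against 1.60, 1.30 and 0.86 (change 1.35 ± 0.18, SE; limma adjusted p = 2.69e-05). Kcnq3, a subunit of the M current channel, was at 2.12, 1.69 and 1.15 against 0.57, 0.34 and 0.53 (change 1.18 ± 0.22; 0.0013). Its streptozotocin pools lay at 1.55, 1.46 and 1.74, above every control pool. Kcnj16 changed by 1.03 ± 0.18 (5.15e-04). Near the 2-fold limit, Kcnq3 stood at 0.94 without Goto-Kakizaki pool 1, and Kcnj16 at 0.94 without Goto-Kakizaki pool 2 and at 0.94 without control pool 1.

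Several peptide and transmitter genes were lower, some of them through 2 of the 3 control pools. Of 42 tested genes of galanin, feeding and other neuropeptides 3 fell and none rose (7.14%, against 2.00% of all genes), with a median of 0.00. Cartpt, the precursor of the appetite-reducing CART peptide, was at -3.57, -1.84 and -3.54 in Goto-Kakizaki pools and at 0.93, -1.63 and 1.57 in control pools (change -3.27 ± 0.60, SE; limma adjusted p = 0.00106). Control pool 2 thus lay near the highest Goto-Kakizaki pool. The Cartpt call was lost with the prefrontal cortex fitted alone (adjusted p = 0.0705, limma), with the groups compared fitted alone (0.119), with slide as a random block in the prefrontal cortex alone (0.0698) and by the methods' t-test at an unadjusted p. Oprk1, the kappa opioid receptor, was at -4.13, -4.86 and -5.05 against -2.70, -3.96 and -2.57 (change -1.60 ± 0.31; 0.00152). Galr2, a galanin receptor, was at -5.25, -5.22 and -5.00 against -3.70, -3.73 and -3.55, with the 3 controls close together. Its change was -1.49 ± 0.26 (SE, limma adjusted p = 5.86e-04). With the normexp correction neither Galr2 (-0.59, limma adjusted p = 0.853) nor Oprk1 (-0.72, 0.468) was called.

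The striatal markers showed how the control pools differed. Of 18 tested markers of medium spiny neurons, the main neurons of the striatum, 5 were called lower and none higher. This was 27.8%, against 2.00% of all genes, and the median was -0.40. Their mean level was 0.67, -0.17 and 1.03 in control pools 1, 2 and 3, against -0.30, 0.05 and 0.10 in Goto-Kakizaki and -0.09, -0.17 and -0.11 in streptozotocin pools. Adora2a, the adenosine receptor of striatopallidal neurons, was at 0.26, -1.66 and 0.92 in control pools and -2.15, -1.72 and -1.53 in Goto-Kakizaki pools. Rgs9, a regulator of dopamine receptor signalling, was at 1.24, -0.38 and 2.12 against -1.23, -0.38 and -0.29, in a fit that left out 1 of the 27 arrays. Drd1, the dopamine D1 receptor, was at -3.20, -4.96 and -2.67 against -5.19, -5.08 and -4.52. In all 3 genes, control pool 2 lay within or beside the range of the Goto-Kakizaki pools and the groups overlapped.

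The limma adjusted p over all pools was 0.00685 for Adora2a, 0.00862 for Rgs9 and 0.026 for Drd1. Without control pool 3 it was 0.0558, 0.0609 and 0.179, and 1 of the 18 markers was called. The count was 3 without control pool 1, Goto-Kakizaki pool 1 or Goto-Kakizaki pool 2, and 7 without control pool 2. It was 1 with the prefrontal cortex fitted alone, where the adjusted p was 0.134 for Adora2a, 0.133 for Rgs9 and 0.177 for Drd1, and also with the groups compared fitted alone (0.234, 0.234 and 0.28, limma). The Drd1 call was also lost without control pool 1 (0.108), Goto-Kakizaki pool 1 (0.075) or Goto-Kakizaki pool 2 (0.0876). The member that stayed called without control pool 3 was Pde10a, a phosphodiesterase of striatal neurons, which was at -0.76, -1.24 and -1.11 against 1.34, 0.97 and 1.40 (change -2.28 ± 0.15, SE; adjusted p = 1.19e-09). It was low in Goto-Kakizaki hippocampus (-2.11) and striatum (-1.83) as well. Of the other defining markers, Ppp1r1b stood at 0.20 (0.708), Penk at 0.03 (0.976) and Scn4b at -0.003 (0.997). The part of the striatal markers in the Cartpt and Oprk1 results was not tested. In bulk tissue, fewer cells of a type and less RNA per cell cannot be told apart.

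**Figure D4:**
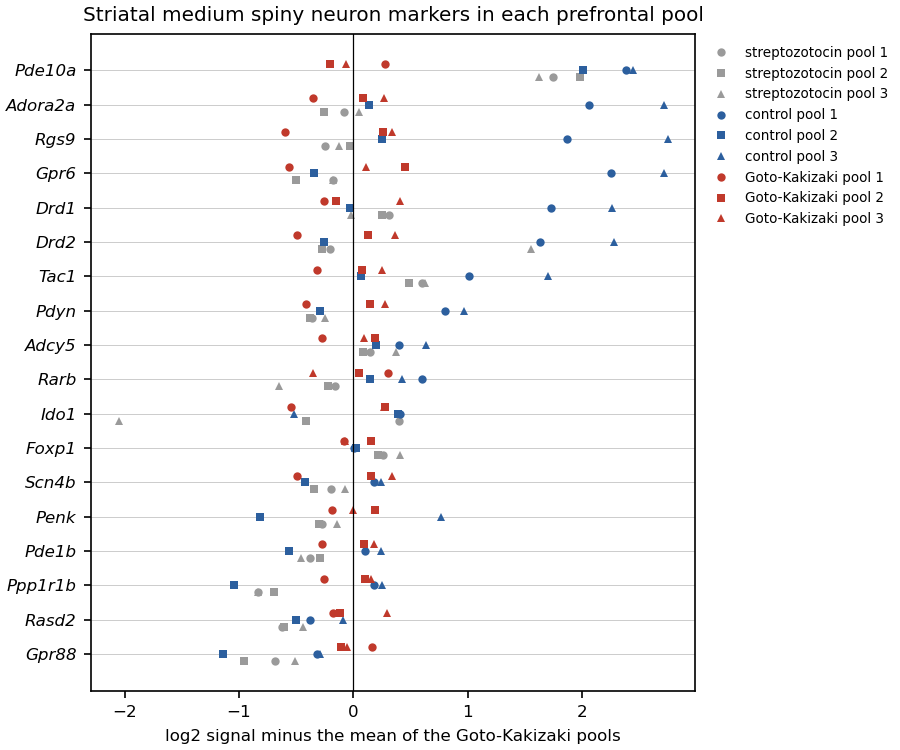
Each row is 1 of 18 tested striatal markers and each point a pool of prefrontal cortex. The horizontal axis is the log2 signal minus the mean of the 3 Goto-Kakizaki pools. Control pools 1 (circles) and 3 (triangles) lie far to the right for Adora2a, Rgs9, Gpr6 and Drd1, where control pool 2 (squares) lies near 0.

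Acetylcholine and monoamine genes had 3 lower calls among 32 tested (9.38%, against 2.00% called of all genes) and a median of 0.17. Besides Drd1, these were Colq, which anchors acetylcholinesterase (-1.14 ± 0.14, SE, limma adjusted p = 8.55e-06), and Slc5a7, the choline transporter of cholinergic neurons (-1.41 ± 0.24, adjusted p = 4.91e-04). With the normexp correction none of the 3 was called, and the changes were -0.33 for Colq and -0.94 for Slc5a7. In the neurotrophin and GDNF family list 2 of 16 fell and the median was 0.05. Ret, the receptor for GDNF ligands, was at -2.36, -2.54 and -2.60 against -1.32, -1.11 and -1.24 (change -1.27 ± 0.18; 6.00e-05).

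Lipid genes changed in both directions. Of 29 tested genes of fatty acid oxidation and lipid epoxides 1 rose (Acox2) and 1 fell (Ephx2), with a median of 0.26. Of 23 genes of cholesterol efflux and glycolipid breakdown 1 rose and 2 fell, with a median of 0.09. Abca1, the transporter that loads cholesterol onto apolipoproteins, was at -3.18, -3.01 and -2.94 against -1.92, -1.81 and -1.92 (change -1.16 ± 0.10, SE; limma adjusted p = 5.69e-08). Gm2a, the activator protein for ganglioside breakdown, was at -0.40, -0.35 and -0.23 against -1.47, -1.67 and -1.48 (change 1.21 ± 0.13; 2.18e-06). Cyp27a1, a sterol hydroxylase, changed by -1.01 ± 0.22 (0.00422), at the 2-fold limit, and by -0.86 without Goto-Kakizaki pool 1 and -0.92 without control pool 1 or control pool 3. None of 21 tested cholesterol synthesis genes was called; Lss (0.62; 0.00222) and Nsdhl (0.54; 0.0044) had the smallest p.

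No gene of insulin signalling or glucose use was called over all pools, where 2.00% of all genes were. At that share a list of this size can hold no call. In the insulin list 1 gene was called lower without Goto-Kakizaki pool 1, and 1 without control pool 1. Among 36 tested genes of insulin and insulin-like growth factor signalling the changes ran from -0.92 to 0.65 with a median of 0.08. Igf1 by its brightest probe was at 0.88, 0.75 and 0.40 against 1.42, 1.74 and 1.62 (change -0.92 ± 0.16, SE; limma adjusted p = 6.27e-04), which is below the 2-fold limit, and its 3 other probes stood between -0.39 and 0.35. Gsk3a, a kinase held in check by insulin, stood at 0.65 (0.0037). Among 32 tested genes of glucose and ketone body use the median was 0.21, with Bdh1, a ketone body enzyme, at -0.68 (0.00309) and the glycolytic enzyme Pkm at 0.67 (0.00355). At an adjusted p under 0.05 with no limit of fold, 4 of these 32 genes were higher and 1 was lower, against 700 higher and 453 lower of all 12837 genes.

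Stress and activity genes were counted against the 2.00% called over all genes. None of 23 tested antioxidant enzymes was called (median 0.17), with Sod2 at 0.51 (limma adjusted p = 0.0208) and Nfe2l2 at -0.48 (0.126). None of 15 glucocorticoid and stress genes was called (median 0.00), with Sult1a1 at 0.39 (0.123) and Dusp1 at -0.44 (0.198). Of 22 immediate early genes, which neuronal activity induces, 1 was called and the median was -0.22. That was Jund, an AP-1 transcription factor, whose probes changed by 1.32 ± 0.14 (SE) and 1.89 ± 0.28 (adjusted p 4.78e-05 and 9.17e-05); the first was fitted without 8 of the 27 arrays, control pool 1 among them. Nr4a3, a nuclear receptor of the same kind, was at -2.08, -1.57 and -1.95 against 0.10, -0.04 and 0.25 by the probe that the study listed (change -1.97 ± 0.30; 1.40e-04). Its brighter probes were at -0.42 (0.33) and -0.70 (0.0983).

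Of 20 circadian clock genes 1 rose, Bhlhe40, a repressor of clock genes, at 1.59, 1.48 and 1.68 against 0.59, 0.66 and 0.48 (change 1.01 ± 0.13, SE; limma adjusted p = 1.14e-05). It stood at the 2-fold limit and was 0.96 without Goto-Kakizaki pool 3 or without control pool 3. The median of the list was 0.15. Among 17 genes of amyloid precursor, tau and synuclein 2 fell and the median was 0.15. Sncg, gamma-synuclein, changed by -1.55 ± 0.33 (0.00389), and Mme, the amyloid-degrading protease neprilysin, by -1.04 ± 0.20 (0.00161), at -0.89 without control pool 3 and -0.96 and -0.97 without Goto-Kakizaki pools 2 and 3.

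The remaining listed genes of the study were Cd47, Chi3l1, Lsp1, Tff1, Trpv6 and Wipf3. Chi3l1, a secreted chitinase-like protein of reactive astrocytes and macrophages, was at -1.46, -1.13 and -1.44 against 0.29, 0.18 and 0.61 (change -1.70 ± 0.16, SE; limma adjusted p = 2.84e-07). Lsp1, an actin-binding protein of leukocytes, changed by 1.17 ± 0.17 (6.45e-05). Wipf3, named Cr16 on the array, changed by 1.08 ± 0.13 (1.20e-05) and 0.98 without control pool 2. Tff1, a trefoil peptide, changed by -1.80 ± 0.41 (0.0069). Cd47, the signal that restrains phagocytosis, changed by 1.03 ± 0.16 (1.68e-04) on 1 probe and by -0.09 (0.656) on another, and the called probe fell under the 2-fold limit, to between 0.95 and 0.99, without Goto-Kakizaki pool 2 or 3 or control pool 1 or 2.

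No astrocyte (15 tested, median -0.06), microglia and complement (19, 0.01), endothelial and mural cell (20, 0.01), interneuron (16, 0.07) or cortical layer and projection neuron gene (21, -0.02) was called. Of all genes 2.00% were called, and at that share a list of this size can hold no call. At a limma adjusted p under 0.05 with no limit of fold, 3 microglial genes were higher and 1 astrocyte marker was lower. Of the interneuron genes 1 was higher and 2 were lower, and of the cortical markers 3 were higher and 1 was lower. The genes with the smallest p were Gja1 (-0.57) and Aldh1l1 (0.46) among astrocyte markers, C1qa (0.81) and C1qb (0.82) among microglial genes, and Cldn5 (0.42) and Kcnj8 (-0.43) among endothelial and mural genes. They were Gad2 (-0.79) and Sst (0.67) among interneuron genes, and Fezf2 (0.65) and Nxph4 (0.91) among cortical markers. The summed level, relative to the 75th percentile, of the 19 microglial and complement genes was 138 to 168 in Goto-Kakizaki and 128 to 144 in control pools.

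Of 19 tested oligodendrocyte and myelin genes 1 fell, and the median was -0.27. Mobp, a myelin protein, was at 0.96, 1.70 and 1.59 against 2.82, 2.24 and 2.99 by its brightest probe (change -1.27 ± 0.22, SE; limma adjusted p = 6.94e-04), and its other probes gave -1.63 (5.67e-07) and -0.70 (0.0151). Mbp, myelin basic protein, stood at -0.68 (0.103). The summed level of the 19 genes was 141 to 178 in Goto-Kakizaki and 177 to 226 in control pools. In streptozotocin pools it was 153 to 164, below every control pool, whereas the Goto-Kakizaki and control ranges overlapped slightly. Of 16 tested meningeal and choroid plexus genes, Col1a2 was called (-1.23 ± 0.36; 0.0386) without control pool 1, where its spot was marked as an outlier, and with overlapping groups. The median of that list was -0.60, its mean level -1.57 to -0.68 in Goto-Kakizaki and -1.17 to -0.04 in control pools. The Col1a2 adjusted p was 0.0703 without Goto-Kakizaki pool 1, 0.183 without Goto-Kakizaki pool 2 and 0.333 without control pool 3. Without Goto-Kakizaki pool 3, 5 of the meningeal genes were called lower, and without control pool 1, 2 were. Of 4 blood cell genes, Alas2, the heme synthesis enzyme of red cells, rose (1.10 ± 0.22; 0.00259), to 0.94 without Goto-Kakizaki pool 2, and the median was 0.79.

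A large part of the prefrontal differences was also found in the other regions of the same strain. In the hippocampus 566 of the probes tested here were called (1.85%) and in the striatum 926 (3.02%). The median SD between pools was 0.109 in control and 0.089 in Goto-Kakizaki hippocampus, and 0.261 and 0.292 in striatum. In the prefrontal cortex it was 0.169 and 0.200. The fit gave all groups the same variance for a probe, which favours calls in the striatum over the hippocampus. The counts and shares of the regions thus do not rest on equal precision. Of the 769 prefrontal calls, 384 (49.9%) were called with the same sign in the hippocampus too, which is 67.8% of the hippocampal calls, and 408 (53.1%) in the striatum, which is 44.1% of the striatal calls. In both regions 298 (38.8%) were called. No prefrontal call was called in the opposite direction in either region. Of the 30 genes with the largest changes, 21 were called in all 3 regions. Chst9, P2rx7, Olr1052, Acsm5 and Cartpt were called in neither of the other regions. By the study's methods the regions were taken from the brains of the same animals, so that regions are not independent samples, and the fit did not take this into account. Which pools of different regions share animals is not given in the sources used here.

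The difference between the prefrontal effect and the mean effect of the other regions was tested directly. It was called for 26 of 30659 probes (0.0848%), 5 of them positive and 21 negative. Grm2 rose more in the prefrontal cortex (2.06) than in hippocampus (1.06) and striatum (0.66), by 1.20 ± 0.22 (SE; limma adjusted p = 0.0282). For Chst9 (adjusted p = 0.0168) the size of the difference is not firm, since no control pool of the prefrontal cortex was well above background: its increase there has only the bound of at least 1.60-fold given above, against 0.99 log2 units in the striatum, and with the normexp background correction its prefrontal call was lost (0.78, adjusted p = 0.953). Trpv6, an epithelial calcium channel, changed by -1.97 against -0.30 and -0.30, a difference of -1.67 ± 0.33 (0.0447). Myom3, a sarcomere protein, changed by -2.34 against -1.05 and -0.40, a difference of -1.62 ± 0.30 (0.0286). Pappa, a protease that cleaves binding proteins of insulin-like growth factor, changed by -1.10 against 0.12 and 0.84, a difference of -1.58 ± 0.28 (0.0282). Of the Goto-Kakizaki pools, 1 was well above background for Pappa and 2 for Trpv6, and with the normexp correction neither prefrontal change was called (-0.19 and -0.74). The Pappa change in the prefrontal cortex was under the 2-fold limit without Goto-Kakizaki pool 2 (-0.93) or control pool 3 (-0.96).

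In 4 further genes the probe whose effect differed between regions was not called in the prefrontal cortex. Grhl3, a transcription factor of epithelia, stood at -0.08 in the prefrontal cortex against -2.24 and -2.52, and Plac9 at 0.25 against -2.51 and -1.01. Lyve1, a hyaluronan receptor of lymphatic vessels and some macrophages, stood at 0.70 against 1.90 and 3.06. A second Lyve1 probe was called in the prefrontal cortex at 1.01 (limma adjusted p = 0.00775), but its change was under the 2-fold limit without Goto-Kakizaki pool 1 or 2 or control pool 2 or 3. Dnai2, a dynein of cilia, stood at -0.78 against 0.86 and 0.71. The limma adjusted p of the difference was 0.00186 for Grhl3, 0.00169 for Plac9, 0.0468 for Lyve1 and 0.0282 for Dnai2. The count of such probes changed with the fit: it was 13 without Goto-Kakizaki pool 2, 15 without Goto-Kakizaki pool 3, 13 without control pool 3 and 45 without control pool 2.

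**Figure D5:**
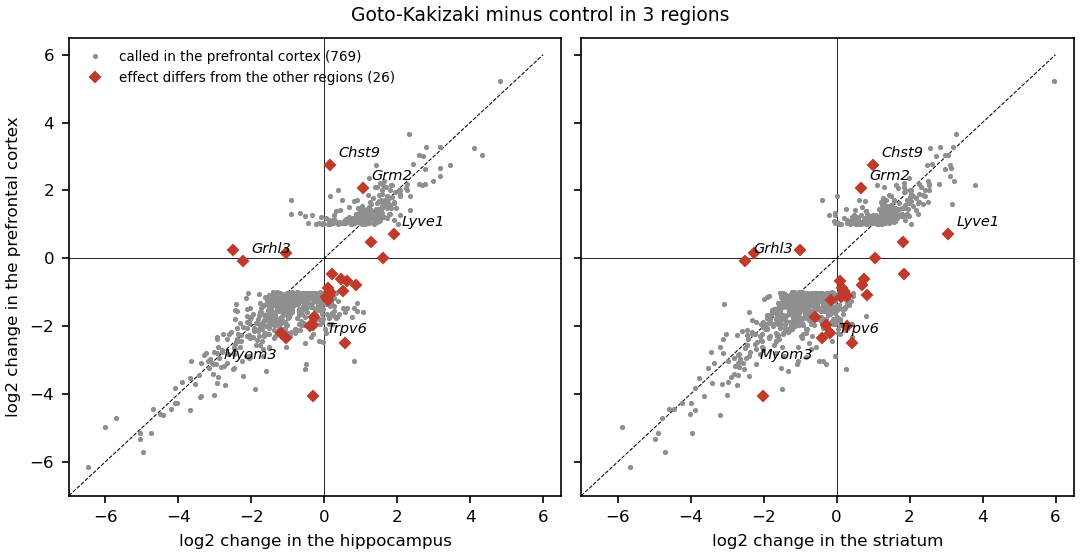
Each grey point is 1 of the 769 probes called in the prefrontal cortex, and each red diamond 1 of the 26 probes whose prefrontal effect differed from the mean of the other regions. The axes are the log2 change, Goto-Kakizaki minus control, in the prefrontal cortex (vertical) and in hippocampus or striatum (horizontal), and the dashed line marks equal change. Of the 769 calls, 298 were called in all 3 regions, and Grm2 lies above the line. Points of probes near background, Chst9 among them, have no firm position on the vertical axis.

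Called genes were looked up in the gene order of the GRCr8 assembly. Of 301 genes with a called probe, 22 (7.31%) had a called gene as the next tested gene on either side, against 4.58% of the genes without a call. No run of 3 or more neighbouring genes was called.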

How the data were processed

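Total RNA of pooled rat brain tissue was hybridised to 1-colour Agilent 60-mer arrays, 1 array a pool, and the authors deposited the scanner's feature tables of spot intensity (Agilent Feature Extraction 9.1, per the labels), which hold a background-subtracted, processed signal. A deposited value table holds the same processed intensity, equal for all 42429 matched features. Here log2 of the processed signal was taken relative to each array's 75th percentile, so that levels are relative and carry no count. Control spots and outlier spots were left out. Each of the 41012 probes had 1 spot an array, so that no spots were averaged. Testing required a signal marked well above background in 2 or more pools of either group, in 1 limma fit over all 9 groups of the 27 arrays (R 4.3.3, limma 3.58.1; Python 3.11.15, pandas 2.3.3), which leaves 18 residual degrees of freedom. Of 41012 probes, 30667 gave a test. Precision is limited by 3 pools a group. Nothing states that pools were separate extractions in time. The p-values rest on the spread between pools, estimated over all 9 groups and not from the compared pools alone. Across the 27 arrays 67.4 to 75.3% of probes were well above background.

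Gene names came from matching the array's accessions, symbols and older symbols to RefSeq: 20042 of 41012 probes matched. Promoters came from RefSeq (GRCr8), and the build used for the probes is not given in the sources used here. A gene in a list stood by its brightest tested probe. Named were the study's listed genes, the 15 largest increases and 15 largest decreases with no overlap, up to 4 called members a list (or the 2 of smallest p), the 5 largest differences between regions in each direction, and the other probes of these genes. Other genes were picked after their values were seen, and a few genes counted in the lists are not reported here by name. The members and lists were chosen with earlier results of these data known. The fit was tested on simulated data. Replicate numbers did not pair the Goto-Kakizaki with the control pools of the prefrontal cortex (correlations of deviations 0.044, -0.126 and 0.101). Pairing by number between regions was not tested. The alternatives were other scalings, background corrections, filters, fits, blocks and leaving out each pool.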

Additional observations from a re-analysis of the deposited data

Results flagged for a closer look

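For 9 named genes the strain effect in the prefrontal cortex differed from the mean effect of hippocampus and striatum, by a test of that difference in the fit over all arrays (limma, Benjamini-Hochberg). The difference was 2.30 for Grhl3, 2.19 for Chst9, 2.01 for Plac9 and 1.20 for Grm2. It was -1.78 for Lyve1, -1.67 for Trpv6, -1.62 for Myom3, -1.58 for Pappa and -1.57 for Dnai2. No control pool of the prefrontal cortex was well above background for Chst9, so that its value rests on signals near background and has no firm size, and for Pappa 1 of the Goto-Kakizaki pools was. Groups of 3 pools were not tested for single outlying pools.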

How the results depend on the processing

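The 769 calls became 256 (88 higher, 168 lower) with the normexp background correction and 2771 with no fold threshold. The normexp setting also added an offset of 50 to every signal, which by itself shrinks the log2 changes of dim probes. How many of the lost calls are due to the offset was not tested. The methods' t-test called 0 after Benjamini-Hochberg adjustment and 695 at an unadjusted p under 0.05 and 2-fold; the study also screened probes by their range before its test, a step not run here, so that these are not the counts its procedure gives. The count was 760 with the 50th percentile (292 higher, 468 lower; the median of all probes moved to 0.0944), 748 with quantile normalization, 679 with the prefrontal cortex fitted alone, 566 with the groups compared fitted alone, 560 with probes well above background on all 6 arrays, 850 with no filter and 993 with array weights. The array weights ran from 0.0822 to 8.18. Leaving out 1 pool gave 675 to 890. A fit with the replicate number as a block called 784, and for the difference between regions 22. Slide as a random block gave 769, and 694 with the prefrontal cortex alone, an alternative chosen after seeing the data. The correlation within slides was -3.24e-04 in the fit over all arrays, so that this fit was nearly the main one. Since the compared groups share no slide, such a block cannot separate slide from strain. The 26 probes whose effect differed between regions became 2 with normexp, 6 with all streptozotocin arrays left out of the fit and 355 with array weights. They became 13 to 45 on leaving out 1 pool. Of 101 named results none reversed. Of the 74 called, 25 lost the call on leaving out some pool, 35 under normexp, 18 with the groups compared fitted alone and none under the replicate block. With the prefrontal cortex fitted alone those that lost it included Adora2a, Cartpt, Col1a2, Drd1, Olr1052, P2rx7, RT1-CE10 and Rgs9. Under normexp they included Abca1, Bhlhe40, Cd47, Colq, Cyp27a1, Doc2g, Galr2, Kcnj16, Mme, Oprk1, Ret, RT1-M4 and Tff1. In 27 of 29 lists a count of calls moved by over 1.5 times under some alternative. Dim probes near background limit the size of the largest decreases.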
